A study of Mus musculus with 85 samples.

Results

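Allelic imbalance was measured in Kupffer cells of CB6F1/J hybrid origin that had engrafted the livers of NSG mice (F1-NSG cells). In each of 3 libraries, reads that crossed a sequence difference between BALB/cJ and C57BL/6J were counted once for each parental allele, and the BALB/cJ allele was compared with the C57BL/6J allele within the same mouse. Every gene on an autosome whose variant-spanning reads, added over both alleles, averaged 10 or more per mouse was a member, which gave 5133 of the 23608 genes in the tables, and the 3 libraries were 3 of 85 in the series. Lineage-negative hematopoietic stem cells of CB6F1/J donors (BALB/cJ dam, C57BL/6J sire) were injected into the tail vein of busulfan-conditioned NOD scid Il2rg null (NSG) hosts aged 8 to 12 weeks, and graft-derived Kupffer cells were sorted from the liver 4 months later. The surface gate that separated graft from host cells was given for inbred donors but not for the hybrid donor, and the treatment label of the F1-NSG libraries reads Control while their titles name the NSG model. Set beside them were Kupffer cells of BALB/cJ donors and of C57BL/6J donors in the same kind of host (BALB/cJ NSG and C57BL/6J NSG, 3 libraries each, cells injected retro-orbitally), Kupffer cells resident in untreated CB6F1/J mice (4 libraries, fasted and not injected) and CB6F1/J bone marrow-derived macrophages (BMDMs) given PBS (2 libraries). The study's methods give 8 to 12 weeks as the age of mice in all experiments. Nothing in the labels says that libraries of a group came from separate experiments, so p-values measure the spread between these mice.

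Kupffer cells are the resident macrophages of the liver sinusoids, where they clear particles, dying cells and aged erythrocytes from the blood. When their niche is emptied, circulating monocytes enter it and take on much of the Kupffer cell program, which is how a marrow graft refills the liver of a conditioned NSG host. Inside a hybrid cell both parental chromosomes meet the same transcription factors and the same surroundings, so a transcript that is more abundant from 1 chromosome marks a difference carried on that chromosome, whereas a difference between donors in a shared host can also be carried elsewhere in the genome. Imprinted genes are a special case, being silenced on the chromosome from 1 parent whatever its strain.

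The F1-NSG libraries held 2.90, 4.39 and 2.36 M BALB/cJ variant-spanning reads and 2.94, 4.48 and 2.40 M C57BL/6J reads. Summed over autosomal genes the BALB/cJ share was 49.7, 49.6 and 49.7%. Summed levels in TPM, a transcript abundance scaled to gene length and library size, of 19 Kupffer cell identity genes lay between 29186 and 32262, against 247 to 288 TPM for 14 sinusoidal endothelial (LSEC) genes, 134 to 168 for 12 stellate cell genes, 766 to 933 for 12 hepatocyte genes, 496 to 678 for 14 monocyte and neutrophil genes, 48.1 to 62.2 for 11 lymphocyte genes, 40.3 to 46.6 for 9 dendritic cell genes and 62.3 to 4003 for 11 erythroid and platelet genes. Mouse 1 was at the high end of the last list. Plac8 held most of the monocyte and neutrophil sum at 448, 549 and 610 TPM, and Trf most of the hepatocyte sum at 604, 627 and 550 TPM. Il2rg, the gene that the NSG host lacks in working form, was at 102, 140 and 125 TPM.

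The F1-NSG libraries stood apart from the other hybrids on the sex chromosomes. Their BALB/cJ share over 87 X-linked genes was 45.0, 39.9 and 44.6%, against 78.0 to 79.2% over 94 genes in the 4 untreated hybrids and 75.9 and 75.8% over 101 genes in the BMDMs. Xist, the RNA that coats an inactive X chromosome, was at 76.9, 70.0 and 74.8 TPM in the F1-NSG libraries and drew 69.0, 59.1 and 57.3 variant-spanning RPM (reads scaled to the library's total), against 0 in the untreated hybrids and BMDMs. Reads of 4 Y-linked genes were 0 in all 3 F1-NSG libraries, whereas the BALB/cJ NSG libraries held 1624 to 2286 and the C57BL/6J NSG libraries 2197 to 2382 such counts. The F1-NSG values were perfectly mapped reads averaged over both genomes, the parental values reads mapped to the donor strain's genome. Y-linked reads of the untreated hybrids were not examined. Xist had 3 to 6 counts in BALB/cJ NSG libraries and 135 to 161 in C57BL/6J NSG libraries. The study's methods describe male animals. In the comparison with untreated hybrids this contrast in sex-linked transcripts cannot be told apart from the host, and in the comparison with BALB/cJ NSG and C57BL/6J NSG cells, which had the same kind of host, it cannot be told apart from the donor. The comparison of alleles within a mouse does not cross this line. A male hybrid of a BALB/cJ dam carries only a BALB/cJ X chromosome, yet part of the X-linked reads of the untreated hybrids was assigned to C57BL/6J. Whether these reads were counted for both alleles or assigned to the wrong one was not tested, nor was their like among autosomal genes.

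Most genes lay near an equal share of assigned reads from both chromosomes. How far such assignment drew autosomal shares toward 50% was not tested. The median BALB/cJ share was 50% in each mouse, the 25th and 75th percentiles of the share over the 3 mice were 45.6 and 54.1%, and 3798 members (74.0%) lay between 40 and 60%. With the allelic ratio tested in edgeR with mouse as a block, 119 of 5133 genes (2.32%) passed an adjusted p of 0.05 with an absolute log2 ratio above 1, 44 with the BALB/cJ allele higher (0.857%) and 75 with the C57BL/6J allele higher (1.46%). Without the mouse block 242 passed, and DESeq2 with the block called 344. With only 2 mice, which leaves 1 residual degree of freedom, 0 to 1 gene passed.

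Calls were more frequent among deeply read genes. Among the 746 members with a mean of 10 to under 30 reads, the SD of the share over mice had a median of 18.6 percentage points and 0 were called, although 53 were under 20% or above 80% in every mouse. Among the 888 members with at least 1000 reads the median SD was 1.86 points and 47 were called (5.29%). In all, 169 members (3.29%) were under 20% or above 80% in every mouse, and 56 of these were called. The alleles of 994 members (19.4%) did not overlap over the mice. In 148 members the allele columns were equal in every mouse and 43 had the same columns as another member, and without these 191 genes the count of calls was again 119.

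**Figure D1:**
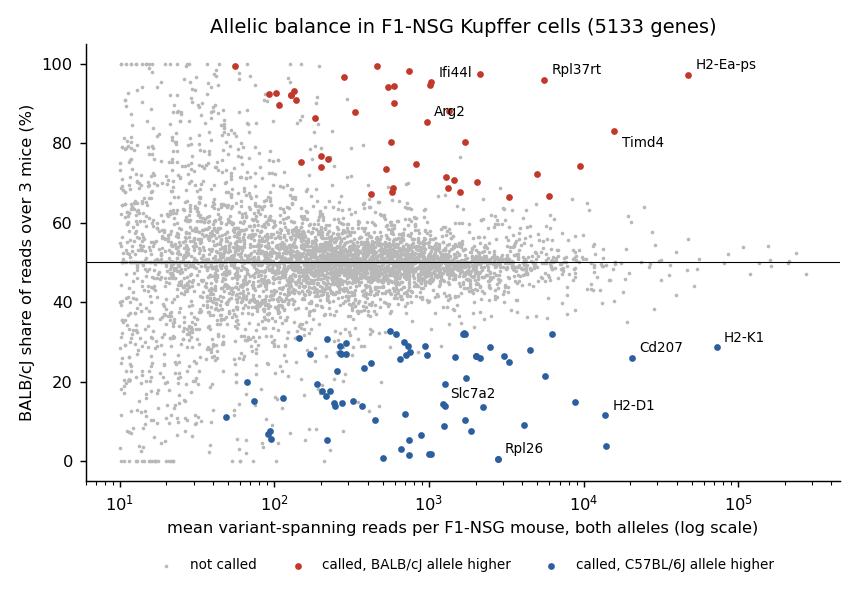
BALB/cJ share of variant-spanning reads over 3 F1-NSG mice (%) against the mean reads per mouse (log scale), 1 point per gene, with the 44 genes called BALB/cJ higher in red and the 75 called C57BL/6J higher in blue. The spread around 50% narrows to the right, and the called genes lie outside the band of deeply read balanced genes.

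Kupffer cell surface receptors were imbalanced toward each parent. Timd4, a phosphatidylserine receptor that marks long-lived resident macrophages, had 11475.5, 17034 and 10814.5 BALB/cJ reads against 2482.5, 3650.5 and 1879.5 C57BL/6J reads, a BALB/cJ share of 83.3% ± 1.68 (SD, n = 3). The gene lies at chr11:46810786-46844333 (mm10), and its reads were counted over exons. The BALB/cJ allele was the higher in every mouse and the log2 ratio was 2.33 ± 0.08 (SE; edgeR adjusted p = 0.0093). Marco, a scavenger receptor for bacteria and particles, went the other way with shares of 17.4, 18.9 and 15.5% and a log2 ratio of -2.22 ± 0.13 (adjusted p = 0.014). Cd207, the lectin langerin, had shares of 25.0, 23.6 and 29.5% and a log2 ratio of -1.50 ± 0.11 (adjusted p = 0.019). These were 2 of 12 tested identity genes and 1 of 7 C-type lectins, where 2.32% of all members were called. Clec4f, a Kupffer cell lectin, lay at 54.1% ± 0.28 and Cd5l, a secreted scavenger protein, at 52.5% ± 0.427 (SD, n = 3), both with a log2 ratio under 0.5, and the 12 identity genes had a median absolute log2 ratio of 0.26, against 0.26 over all genes tested.

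Among the listed antigen presentation genes, 2 classical class I molecules were called, both toward C57BL/6J, where 2.32% of all members were called in either direction. H2-D1, which presents peptides to CD8 T cells, had 1359.5, 2205.5 and 1219.5 BALB/cJ reads against 11050.5, 16422.5 and 9127 C57BL/6J reads. The gene lies in the H2 complex at chr17:35263094-35267497. Its BALB/cJ share was 11.5% ± 0.496 and its log2 ratio -2.93 ± 0.04 (SE; edgeR adjusted p = 0.0045). H2-K1, the other classical class I molecule called, had shares of 26.6, 28.9 and 30.2% and a log2 ratio of -1.31 ± 0.06 (adjusted p = 0.0095). The other 15 of 17 tested class I pathway genes did not pass, among them the nonclassical H2-T22 with shares of 17.3, 12.9 and 26.3% (log2 ratio -2.11 ± 0.31, adjusted p = 0.068). Of 10 listed class II genes 0 passed both limits, with H2-DMb1, a peptide-loading chaperone subunit, at 60.3% ± 0.704 (log2 ratio 0.62 ± 0.03, adjusted p = 0.0095), with H2-Ab1 at 49.9% ± 0.874, Cd74 at 50.3% ± 0.199 and H2-Aa at 47.2% ± 0.869 (SD, n = 3). Class I genes are near-identical copies of one another and differ in many bases between the strains, so reads can be lost or shared unequally and these ratios are uncertain. Outside the lists, H2-Ea-ps, a class II alpha chain gene that C57BL/6J carries as a deletion mutant, had a BALB/cJ share of 97.2, 97.1 and 97.6% and a log2 ratio of 5.20 ± 0.08 (adjusted p = 0.0045).

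The interferon-stimulated list held 1 call among 20 tested genes, the PYHIN list 3 among 10 and the GTPase list 1 among 8, where 2.32% of all members were called. With 1 call each, the first and last of these lists show no pattern beyond the gene called. Ifi44l, an interferon-stimulated gene, had 993.5, 1294 and 663.5 BALB/cJ reads against 58, 47 and 36 C57BL/6J reads, a share of 95.3% ± 1.07 and a log2 ratio of 4.38 ± 0.16 (adjusted p = 0.0093 in edgeR). It was the single call among 20 tested interferon-stimulated genes, whose median log2 ratio was 0.05, and its neighbour Ifi44 lay at 63.7% ± 1.95 with a log2 ratio of 0.83 ± 0.06, under the limit. Ifit1, an RNA-binding effector of the same list, leaned the other way at 37.3% ± 0.385 (log2 ratio -0.74 ± 0.05, adjusted p = 0.015). Of 10 tested PYHIN genes, the Ifi200 family that includes DNA sensors, 3 were called and all 3 were higher from the C57BL/6J allele. Ifi213 had shares of 4.87, 8.11 and 4.94% with a log2 ratio of -3.92 ± 0.21 (adjusted p = 0.014), Ifi209 shares of 27.9, 29.0 and 25.9% with -1.37 ± 0.06 (adjusted p = 0.0095), and Ifi208 shares of 23.5, 26.1 and 32.1% with -1.42 ± 0.15 (adjusted p = 0.036). The median log2 ratio of the 10 genes was -0.74, against 0.01 over all genes tested, while Ifi203 and Mndal lay at 50.6% ± 2.02 and 51.0% ± 1.41, and Aim2, a cytosolic DNA sensor, leaned toward BALB/cJ at 58.9% ± 1.71 (log2 ratio 0.53 ± 0.05, adjusted p = 0.028). The family is a cluster of similar copies on chromosome 1, so the assignment of reads among them is uncertain. Gbp6, a guanylate-binding protein, was the single call among 8 tested GTPases with shares of 31.2, 35.8 and 29.3%.

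Arginine and lipid metabolism held 3 further named calls, and the list counts below stand beside 2.32% of all members called. Arg2, the mitochondrial arginase, had shares of 85.8, 87.7 and 81.5% and a log2 ratio of 2.55 ± 0.16 (edgeR adjusted p = 0.017). Slc7a2, a cationic amino acid transporter that imports arginine, leaned toward C57BL/6J with shares of 15.5, 13.9 and 14.1% and a log2 ratio of -2.55 ± 0.06 (adjusted p = 0.0064). Fads1, the delta-5 fatty acid desaturase, had shares of 71.6, 67.7 and 74.2% and a log2 ratio of 1.31 ± 0.11 (adjusted p = 0.026), the single call among 11 tested cholesterol and fatty acid synthesis genes. Fech, which inserts iron to complete heme, had shares of 78.2, 76.4 and 75.4% and was the single call among 12 heme and iron genes. Aoah, which deacylates bacterial LPS, had shares of 30.0, 36.6 and 33.7% and a log2 ratio of -0.98 ± 0.10, just under the limit (adjusted p = 0.035). Of 24 tested genes that the study names, a list chosen on these samples among others, 2 were called toward BALB/cJ and 2 toward C57BL/6J.

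Several other lists held no called gene, where 2.32% of all members were called. Of 18 tested macrophage lineage factors, 18 lysosomal hydrolases and V-ATPase subunits, 10 NF-kB pathway genes, 7 LXR targets, 9 lipid-associated macrophage genes, 10 proliferation genes, 12 Toll-like receptor and LPS-sensing genes, 8 inflammasome genes, 7 chemokine and receptor genes, 6 complement genes, 8 proteases and inhibitors and 4 AP-1 genes, 0 were called. Their smallest median absolute log2 ratio was 0.06 in the NF-kB genes and 0.08 in the LXR targets, against 0.26 over all genes tested. The median log2 ratio was -0.57 in the inflammasome genes and 0.56 in the chemokine genes. Uncalled members could still lie far from 50%, as Nlrp1a, an inflammasome sensor, did with shares of 5.18, 8.55 and 0% (log2 ratio -4.25 ± 0.68, edgeR adjusted p = 0.077). Nr1h3, the liver X receptor that Kupffer cells rely on, had shares of 42.5, 41.0 and 39.5% and a log2 ratio of -0.51 ± 0.05, under the limit with an edgeR adjusted p of 0.028. Nfkb1, the p105 precursor of an NF-kB subunit, was at 50.5% ± 0.884 and the cytokine Il1b at 56.1% ± 0.62 (SD, n = 3).

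**Figure D2:**
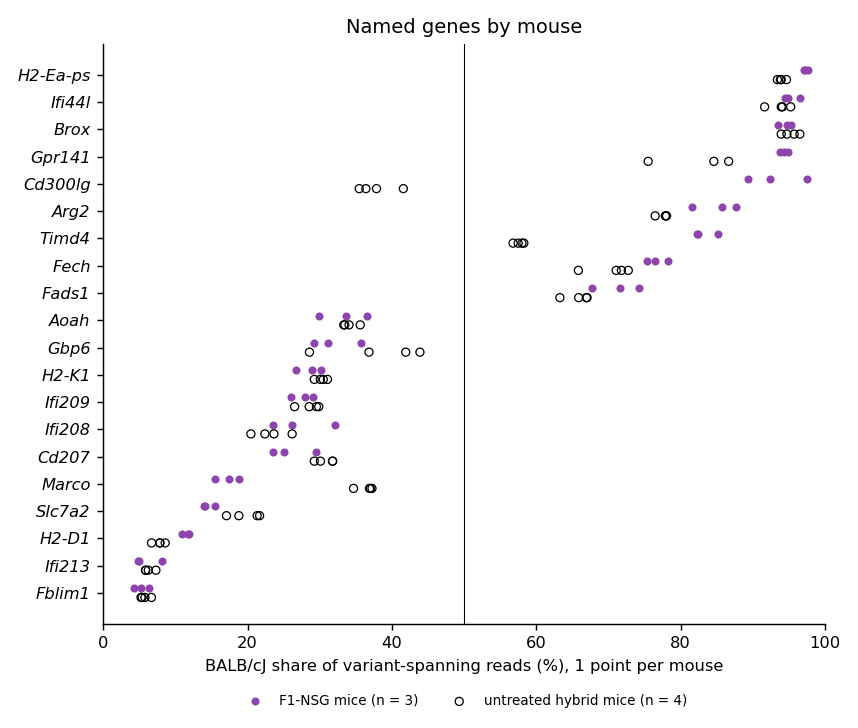
BALB/cJ share of variant-spanning reads (%) for 20 named genes, with 3 filled points for the F1-NSG mice above 4 open points for the untreated hybrid mice (3 open points for Gpr141, which had no reads in 1 of them). Cd300lg, Timd4 and Marco separate widely between the sets, with Timd4 at 83.3% and 57.6% and Marco at 17.3% and 36.5%, whereas H2-K1, Ifi209 and Brox overlap.

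The 10 largest called ratios in each direction included several genes that exist in many copies. Toward BALB/cJ they were Rpl13, Serpina1a, Serpina3k, H2-Ea-ps, Serpina3h, Rpl37rt, Ifi44l, Brox, Atp6v0e2 and Gpr141, and toward C57BL/6J they were Rpl26, Rpl35a, Morf4l1, Rpl30, Zfp33b, Fblim1, Fga, Tmem38a, Ifi213 and Sod3. Serpina1a, Serpina3k, Serpina3h and Fga are hepatocyte genes. The part of host liver cells, whose NOD genome the read assignment does not separate, in their ratios was not tested. Rpl26 had shares of 0.533, 0.255 and 1.12%, and Rpl13 shares of 98.9, 99.5 and 100%. Ribosomal protein genes have many near-identical processed pseudogenes, and these ratios are uncertain. Of 33 members with a ribosomal protein symbol, 3 were called higher from BALB/cJ and 4 higher from C57BL/6J, where 2.32% of all members were called. Outside that group, Brox, a Bro1-domain protein of the ESCRT pathway, had shares of 94.8, 95.2 and 93.6% (log2 ratio 4.14 ± 0.11, edgeR adjusted p = 0.0064), and Fblim1, which links filamin to integrin adhesions, shares of 6.27, 4.28 and 5.28% (log2 ratio -4.16 ± 0.15, adjusted p = 0.0093). In untreated hybrids Brox lay between 94.0 and 96.5% and Fblim1 between 5.22 and 6.67%.

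Imprinted genes were examined by the parent of origin, BALB/cJ being the maternal chromosome. The hybrids came from this direction of the cross only, so parent of origin and strain of an allele cannot be told apart within them, for any gene. Kcnq1ot1, a paternally expressed antisense RNA, had 182, 261.5 and 90.5 BALB/cJ reads against 1512, 2065 and 1015 C57BL/6J reads, and its share of 10.1% ± 1.64 gave a log2 ratio of -3.13 ± 0.12 (SE; edgeR adjusted p = 0.0095). Peg13, another paternally expressed noncoding RNA, had shares of 12.3, 15.2 and 18.6% and a log2 ratio of -2.46 ± 0.17 (adjusted p = 0.019). These were 2 of 6 tested genes expressed from the paternal chromosome, where 2.32% of all members were called. Both were low from the maternal chromosome in every mouse. The others were not called. Over the 3 mice together, Zrsr1 had a BALB/cJ share of 10.4% (edgeR adjusted p = 0.23). Inpp5f, Casd1 and Mcts2 lay on the maternal side of 50% at 60.8, 54.6 and 52.1%. Of 11 tested genes listed as maternally expressed in some tissue, 0 were called. Gnas was balanced at 49.7% ± 0.212, H13 lay at 47.3% ± 2.41 and Trappc9 at 58.6% ± 1.74. Blcap, with shares of 10.3, 5.91 and 22.8%, and Tspan32, with 7.88, 0 and 6.05%, were low from the maternal chromosome (edgeR adjusted p = 0.087 and 0.12), although their list names the other parent. Tspan32 was also lower in BALB/cJ NSG than in C57BL/6J NSG cells, with 1.87, 3.44 and 1.41 against 38.1, 36.1 and 27.2 counts scaled to library size (CPM). Kcnq1ot1 overlaps Kcnq1, and Peg13, Mcts2 and Zrsr1 lie inside Trappc9, H13 and Commd1. The sources do not state that reads were counted by strand, so reads of such pairs cannot be told apart.

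**Figure D3:**
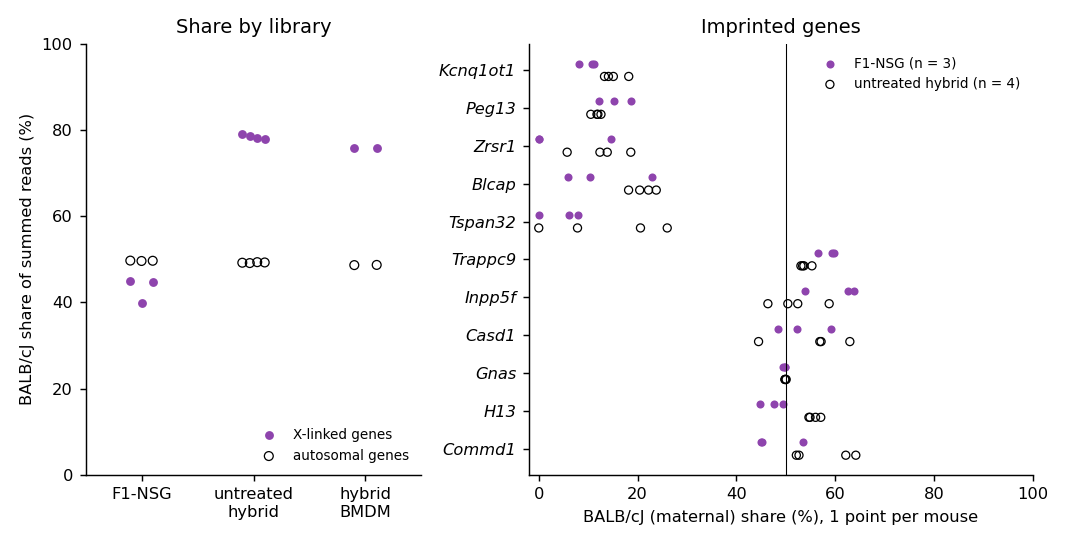
Left, BALB/cJ share of reads (%) summed over X-linked genes (filled) and autosomal genes (open), 1 point per library: X-linked shares were 39.9 to 45.0% in F1-NSG cells and 78.0 to 79.2% in untreated hybrids, while autosomal shares were near 50% in each. Right, BALB/cJ (maternal) share (%) of 11 imprinted genes in 3 F1-NSG mice (filled) and 4 untreated hybrids (open), with Kcnq1ot1 and Peg13 low in each mouse and Gnas on the line at 50%.

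The allelic log2 ratio in F1-NSG cells minus that in Kupffer cells of untreated hybrids was tested. These sets differed in host, cell origin (marrow graft or resident), busulfan conditioning and sex-linked transcripts, which cannot be told apart here. Nor can age, since F1-NSG cells were taken 4 months after transplant, or fasting, which the methods state for the untreated hybrids and not for the chimeras. Of 4997 genes tested, 83 passed (1.66%), 45 with a difference above 0 (0.901%) and 38 below 0 (0.76%). Shares did not overlap between the 3 F1-NSG mice and the 4 untreated mice in all 83, against 16.6% of all genes tested. The 83 were chosen on these same shares, so this adds no separate evidence. Most allelic calls of F1-NSG cells had the same direction in untreated hybrids, 109 of 118 tested in both lying on the same side of 50%, against 65.6% of all genes. Of the genes tested in both, 150 (3.0%) were under 20% or above 80% in every F1-NSG mouse and 85 (1.7%) in every untreated mouse, and 53 were in both sets, 35.3% of the F1-NSG set and 62.4% of the untreated set. The count of 83 fell to 41, 44, 40 and 35 without untreated mouse 1, 2, 3 or 4, and was 64 to 119 without an F1-NSG mouse. Of 23 named differences, 10 passed whichever library was left out.

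Timd4 and Marco were the calls among 10 tested scavenger and dead-cell uptake receptors in the comparison with untreated hybrids, where 1.66% of all genes tested were called. The Timd4 share was 82.2, 82.4 and 85.2% in F1-NSG mice and 57.5, 56.8, 58.3 and 58.0% in untreated hybrids, a difference in log2 ratio of 1.86 ± 0.08 (SE; edgeR adjusted p = 0.00037). The Marco share was 17.4, 18.9 and 15.5% in F1-NSG mice and 37.0, 36.9, 37.2 and 34.7% in untreated hybrids, a difference of -1.43 ± 0.09 (adjusted p = 0.001). Each was skewed the same way in both sets and further from 50% in F1-NSG cells, and both differences passed whichever library was left out. Marco was at 16.3, 13.5 and 8.23 TPM in F1-NSG cells and Timd4 at 345, 377 and 404 TPM. The part of any host Kupffer cells, which carry a NOD genome, in these differences was not tested. Cd300lg, a Cd300 family receptor known from endothelium, had 60, 105 and 92 BALB/cJ reads against 1.5, 12.5 and 7.5 C57BL/6J reads in F1-NSG cells. Its share was 97.6, 89.4 and 92.5% in F1-NSG mice and 35.5, 37.9, 36.4 and 41.6% in untreated hybrids, on opposite sides of 50%, a difference of 4.30 ± 0.31 (adjusted p = 0.0011). H2-D1 shifted less, with 10.95, 11.8 and 11.8% in F1-NSG mice against 6.69, 7.84, 8.58 and 7.85% in untreated hybrids, with a difference of 0.62 ± 0.08 (adjusted p = 0.014) under the log2 limit.

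Genes of other liver cells were among those that differed between F1-NSG cells and untreated hybrids. Of the 83 genes, 60 had a mean of 8 TPM or less in F1-NSG cells, whereas 3059 of the 4997 genes tested were above 8 TPM. Restricting the test to those 3059 genes left 23 calls. Of 8 tested hepatocyte markers, 5 were called, 2 above 0 (Apoa1 and Serpina1c) and 3 below 0 (Fga, Fgb and Apob), against 1.66% of all genes. The median absolute difference of the 8 was 3.60, against 0.19 over all genes. Fga, the fibrinogen alpha chain, had a share of 3.82, 6.28 and 6.09% in F1-NSG mice and 52.8, 50.8, 47.6 and 47.9% in untreated hybrids, with a difference of -4.14 ± 0.21 (edgeR adjusted p = 0.00037). All 3 fibrinogen genes were called below 0, and 5 of 10 tested Serpina1 and Serpina3 genes, hepatocyte protease inhibitors in several similar copies, above 0. Apoa1, the main apolipoprotein of HDL, had shares of 93.2, 91.8 and 70.3% in F1-NSG mice and 48.7, 48.8, 56.2 and 47.7% in untreated hybrids. Alb, serum albumin, was at 208, 151 and 131 TPM in F1-NSG mice, but its allele columns were equal in every mouse, so its share of 50% carries no allelic information. Apoa2 lay at 46.4% ± 7.02 and Trf at 47.8% ± 1.40 (SD, n = 3). Alb, Apoa2 and Trf were singled out after their values were seen.

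Of 3 tested stellate markers 2 were called, and of 2 tested LSEC markers 1 was called, where 1.66% of all genes tested were called. With 3 or 2 genes tested, these counts describe the genes named and not a list. Colec11, a soluble collectin made by stellate cells, had 529, 573 and 506 BALB/cJ reads against 38, 100.5 and 36.5 C57BL/6J reads in F1-NSG cells, and its share was 93.3, 85.1 and 93.3% in F1-NSG mice against 40.2, 29.7, 44.7 and 39.1% in untreated hybrids (difference 3.89 ± 0.36, edgeR adjusted p = 0.0031). Lrat, the retinol-esterifying enzyme of stellate cells, had shares of 21.9, 17.9 and 18.9% in F1-NSG mice and 50.6, 40.4, 47.9 and 45.6% in untreated hybrids (difference -1.87 ± 0.20, adjusted p = 0.0054 with the mouse block and 0.21 without it). Kdr, the endothelial VEGF receptor, had a mean share of 29.1% ± 4.98 (SD, n = 3) in F1-NSG mice and 54.8% ± 5.40 (SD, n = 4) in untreated hybrids, with adjusted p = 0.025 with the block and 0.081 without it. The summed variant-spanning reads of hepatocyte markers were 1898 to 2399 RPM in F1-NSG libraries and 5915 to 6676 in untreated libraries, those of stellate markers 189 to 229 RPM in F1-NSG and 327 to 483 RPM in untreated libraries, and those of LSEC markers 91.5 to 123 RPM in F1-NSG and 92.7 to 124 RPM in untreated libraries. No marker of these 3 lists was at 0 TPM in F1-NSG cells. Host liver cells carry a NOD genome, which the assignment of reads to BALB/cJ or C57BL/6J does not separate, and the part of such cells in these differences was not tested.

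Several of the largest differences from untreated hybrids had no read from 1 allele in F1-NSG cells. Apoc3, an apolipoprotein of triglyceride-rich particles, had 104, 61.5 and 35 BALB/cJ reads and 0 C57BL/6J reads, at least 66.8-fold higher from BALB/cJ when 3 reads over the 3 mice are taken as the floor. Ccbe1, a secreted factor for lymphatic growth, had 0 BALB/cJ reads against 71, 111 and 127 C57BL/6J reads, at least 103-fold lower from BALB/cJ on the same floor. In untreated hybrids the mean share was 54.3% ± 6.21 for Apoc3 and 52.9% ± 12.03 for Ccbe1 (SD, n = 4). Across the genes tested in both hybrids, 52 were under 20% or above 80% in every F1-NSG mouse and between 40 and 60% in untreated hybrids, 34 toward BALB/cJ and 18 toward C57BL/6J. Of these 52, 47 had a mean of 8 TPM or less, whereas 3059 of all 4997 genes tested in both were above 8 TPM.

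**Figure D4:**
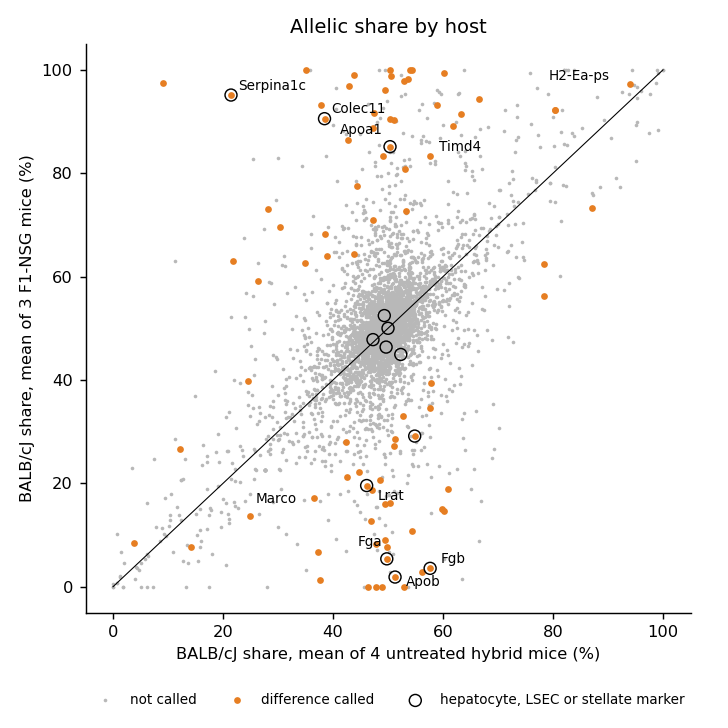
Mean BALB/cJ share (%) in 3 F1-NSG mice against that in 4 untreated hybrid mice, 1 point per gene, with the 83 called differences in orange and tested hepatocyte, LSEC and stellate markers ringed. The cloud follows the diagonal near 50%, while many called genes lie near 0 or 100% in F1-NSG cells at a share near 50% in untreated hybrids.

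The allelic ratio was then set beside the strain difference between BALB/cJ NSG and C57BL/6J NSG cells, which shared no library with it. Of 12683 genes tested between these donors, 641 passed (5.05%), 247 higher in BALB/cJ NSG (1.95%) and 394 higher in C57BL/6J NSG (3.11%). Median strain log2 ratios of marker lists were -1.25 (lymphocyte), -0.75 (stellate), -0.62 (hepatocyte), -0.58 (dendritic cell), -0.46 (monocyte and neutrophil) and -0.35 (LSEC). They were 0.89 for erythroid and platelet and 0.23 for Kupffer cell identity genes, against 0.002 over all genes. The part of other cells in the strain differences, here and below, was not tested. Of the 117 allelic calls tested between donors, 98 had the same sign, as had 60.3% of all members tested in both, and 63 (53.8%) were also called, 61 in the same direction and 2 in the opposite one, against 6.84% of all members called between donors. Read the other way, 340 members were called between donors and 18.5% of them were also called between alleles, with 290 of the same sign. The 144 members higher in BALB/cJ NSG cells had a median strain log2 ratio of 1.53 and a median allelic log2 ratio of 0.88, and the 196 higher in C57BL/6J NSG cells had -1.73 and -1.23. Of the 340, 176 had an absolute allelic log2 ratio above 1 and 61 under 0.5.

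**Figure D5:**
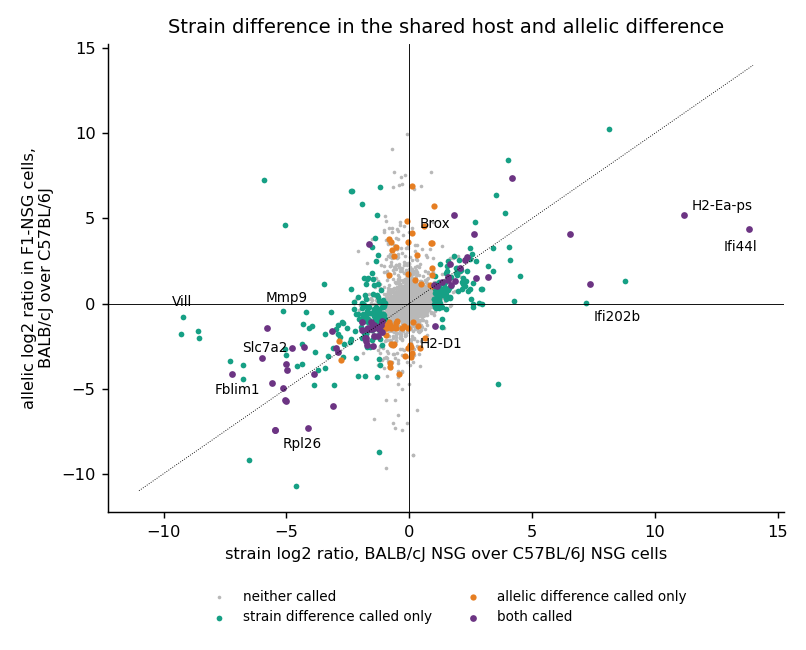
Allelic log2 ratio in F1-NSG cells against the strain log2 ratio of BALB/cJ NSG over C57BL/6J NSG cells, 1 point per gene tested in both, coloured by which ratio was called, with a dotted line of equality. Of the 63 genes called in both, 61 have the same sign in each, H2-D1 and Brox lie near the vertical axis, and Vill, Mmp9 and Ifi202b lie near the horizontal axis. Fitted ratios of genes with 0 counts on 1 side depend on the prior count.

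The difference between the 2 log2 ratios was tested in a single fit. Of 4974 genes, 263 passed (5.29%), 107 with the strain ratio above the allelic ratio (2.15%) and 156 below it (3.14%). Without the mouse block 170 passed, and above 8 TPM 111 passed. Of the 263, 83 were called between donors and 180 were not, and 257 of the 340 members called between donors had no such call.

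Some genes differed in the same direction between donors and between alleles. Timd4 had 906, 906 and 862 CPM in BALB/cJ NSG cells against 282, 282 and 321 CPM in C57BL/6J NSG cells, a strain log2 ratio of 1.66 ± 0.10 (edgeR adjusted p = 6.8e-08), smaller than its allelic ratio of 2.33, with a difference of -0.67 ± 0.13 (adjusted p = 0.0058) under the log2 limit. Arg2 had 71.9, 54.5 and 73.8 CPM in BALB/cJ NSG cells against 15.3, 16.02 and 12.3 CPM in C57BL/6J NSG cells, a ratio of 2.27 ± 0.17 beside an allelic ratio of 2.55. Fads1 had a strain ratio of 1.88 ± 0.14 beside an allelic ratio of 1.31, and Cd207 one of -1.53 ± 0.28 beside -1.50. For Ifi208 both ratios were -1.42 and for Ifi209 they were -1.30 between donors and -1.37 between alleles. Cd207 lost its call between donors without any 1 of the 3 BALB/cJ NSG libraries or C57BL/6J NSG library 3, with adjusted p between 0.061 and 0.11.

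Other genes were called between alleles and not between donors. H2-D1 had 2926, 2871 and 2960 CPM in BALB/cJ NSG cells against 2572, 3160 and 2717 CPM in C57BL/6J NSG cells, overlapping levels with a strain log2 ratio of 0.12 ± 0.11, which exceeded its allelic ratio by 3.04 (edgeR adjusted p = 5.9e-09). H2-K1 had 2398, 2344 and 2315 CPM in BALB/cJ NSG cells against 1806, 2110 and 1842 CPM in C57BL/6J NSG cells, a strain ratio of 0.36 ± 0.10 (adjusted p = 0.041) under the limit and opposite in sign to its allelic ratio, which it exceeded by 1.67 (adjusted p = 1.6e-06). H2-K and H2-D were also the surface antigens of the donor gate. The imprinted Kcnq1ot1 and Peg13 had strain ratios of 0.07 and 0.04 and differences of 3.21 and 2.50. Brox had a strain ratio of 0.12 ± 0.12 beside its allelic ratio of 4.14, and Fech -0.05 ± 0.11 beside 1.72.

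A last set differed between donors and not, or less, between alleles. Whether reads counted for both alleles gave shares near 50% was not tested, and the ratios of class I genes such as H2-T24 are uncertain. H2-T24, a nonclassical class I gene, had 391, 365 and 361 CPM in BALB/cJ NSG cells against 51.1, 66.1 and 74.2 CPM in C57BL/6J NSG cells, with an allelic share of 49.6% ± 0.735, and the strain ratio exceeded the allelic one by 2.62 (edgeR adjusted p = 1.9e-06). Mmp9, a secreted gelatinase, had 1.62, 2.56 and 1.23 CPM in BALB/cJ NSG cells against 55.6, 72.6 and 66.4 CPM in C57BL/6J NSG cells, while its share was 36.6, 47.95 and 38.7%, a difference of -4.71 (adjusted p = 3.2e-06). Cd163, the hemoglobin-haptoglobin scavenger receptor, had 969, 1167 and 1267 CPM in BALB/cJ NSG cells against 123, 139 and 189 CPM in C57BL/6J NSG cells with a share of 64.2% ± 6.73, a difference of 2.08 (adjusted p = 0.00055). Slc7a2 had 1.12, 1.89 and 2.38 CPM in BALB/cJ NSG cells against 38.6, 33.2 and 41.6 CPM in C57BL/6J NSG cells, and its strain ratio of -4.28 differed from its allelic ratio by -1.72 with both on the same side. C5ar1, the anaphylatoxin receptor, differed between donors by 1.11 ± 0.18 at a share of 50.1% ± 0.883, and without BALB/cJ NSG library 3 its difference of the ratios was 0.84. Ifi202b, chosen after its values were seen, had 141, 177 and 161 CPM in BALB/cJ NSG cells against 1.38, 1.15 and 0.833 CPM in C57BL/6J NSG cells at an allelic share of 50.5% ± 0.734, in a family of near-identical copies. Vill, a villin-like protein, had 0, 0.111 and 0 CPM in BALB/cJ NSG cells against 25.4, 35.7 and 28.3 CPM in C57BL/6J NSG cells with a share of 36.9% ± 6.39. Ifi44l was at 182, 202 and 187 CPM in BALB/cJ NSG cells and at 0 in the 3 C57BL/6J NSG libraries, while F1-NSG cells still held 36 to 58 reads assigned to its C57BL/6J allele.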

How the data were processed

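RNA-seq of polyA RNA was analysed from the authors' deposited tables. According to the study's methods and the submitters' processing notes, reads were mapped with STAR to mm10 and to a BALB/cJ genome, MMARGE kept perfectly mapped reads that spanned a variant, and HOMER counted reads over exons. The authors deposited expected counts per allele, with a step of 0.5 (here rounded to integers before testing), exon read counts for the parental NSG libraries, and TPM values, which served as levels and as a filter. Library depth was 55.3 to 105.4 M reads in the F1-NSG tables of perfectly mapped reads and 8.03 to 11.4 M counts in the parental NSG tables. In the tables used, 77 columns of other samples were not used.

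Gene positions came from RefSeq on mm10 (22964 of 23608 symbols matched, 546 by synonym, 26 by GENCODE, 71 not matched). Tests used edgeR 4.0.16 in R 4.3.3 (robust quasi-likelihood, TMM, Benjamini-Hochberg) and were tested on simulated data. A gene was called at an adjusted p under 0.05 and an absolute log2 value above 1. DESeq2 1.42.0 was an alternative. The mouse block pairs the allele columns of 1 library, and same-mouse columns deviated together (r = 0.41, 0.40 and 0.35 across genes). Parental replicate numbers did not pair (r = -0.01, 0.07 and 0.13) and entered without a block. Intervals and floors cover counting error only. Named genes were up to 4 called members of each of 33 lists, the 10 largest called ratios per direction with at least 50 reads and alleles that do not overlap (the gene models Gm, Rik and LOC left out), each imprinted member, genes the study names, and the 8 largest called differences per direction in the interaction tests. Clec4f, Cd5l, H2-Aa, H2-Ab1, H2-DMb1, Ifit1, Aim2, Plac8, Cd74, Mndal, Alb, Apoa2, Trf and Ifi202b lie outside this rule and were named after their values were seen. The members and lists were chosen with earlier results of these data known. Alternatives were other scalings, minimum reads, no block, no log2 limit, and each library left out.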

Additional observations from a re-analysis of the deposited data

Results flagged for a closer look

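Differences in allelic log2 ratio between F1-NSG cells and Kupffer cells of untreated hybrids passed the test in 23 named genes. Among macrophage, stellate, endothelial and Cd300 genes they were 1.86 for Timd4, -1.43 for Marco, 3.89 for Colec11, -1.87 for Lrat, -1.55 for Kdr and 4.30 for Cd300lg. Among genes of hepatocytes they were 6.68 for Serpina1c, 6.35 for Serpina1a, -4.14 for Fga, -5.21 for Fgb, -5.71 for Apob, 9.10 for Apoc3, 9.26 for Fgl1, 7.995 for Cyp2c37, 7.73 for Itih3, 7.41 for Ces1c, -8.83 for Ambp and -4.92 for Tdo2. The other named genes were Pik3r3 at 7.07, Ccbe1 at -10.15, Ccdc3 at -6.90, Otud7b at -6.82 and S100a16 at -4.96. Apoc3, Fgl1, Itih3, Pik3r3, Ambp, Ccbe1, Ccdc3 and Otud7b had no read of 1 allele in F1-NSG cells, so their fitted values depend on the prior count and are no bounds. With 1 to 3 reads of the lower allele over the 3 mice, the higher allele of F1-NSG cells exceeded it 30.0-fold in Serpina1c (95% exact interval 9.94 to 148), 25.0-fold in Cyp2c37 (8.23 to 124), 44.6-fold in Apob (15.1 to 468) and 21.2-fold in Tdo2 (6.98 to 225), the intervals covering counting error only. Without the mouse block the adjusted p was 0.081 for Kdr, 0.21 for Lrat, 0.17 for Pik3r3 and 0.053 for Tdo2.

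In the untreated hybrids, 1 of the 4 mice lay far from the other 3 in BALB/cJ share for 8 of 122 named genes tested, where chance gives about 1 in 20. The gap to the nearest mouse took a share of the range of 0.877 for Apoa1, 0.893 for Arg2, 0.953 for Atp6v0e2, 0.896 for Clec14a, 0.832 for H2-T22, 0.850 for Kcnq1, 0.864 for Marco and 1.0 for Rpl35a.

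Xist, outside the autosomal comparison, drew 69.0, 59.1 and 57.3 variant-spanning RPM in F1-NSG mice 1, 2 and 3, above the 0 reads in the untreated hybrids. Its BALB/cJ share was 51.6, 56.5 and 54.3%.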

How the results depend on the processing

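The 119 allelic calls of F1-NSG cells became 223 with no log2 limit, 344 in DESeq2 and 242 without the replicate block, and 0 to 1 when 1 mouse was left out, which leaves 1 residual degree of freedom. They were 91 to 171 under the other alternatives, and 98.3% of them passed without the block. The 83 differences from untreated hybrids became 153 with no log2 limit, 139 in DESeq2, 35 to 119 without 1 library, and 23 above 8 TPM, an alternative chosen after seeing the data. Without the replicate block they were 66. The 263 differences between strain and allelic ratio became 170 without the replicate block and 111 above 8 TPM (chosen after seeing the data), 187 to 261 without 1 library, and 196 with a replicate block also for the parental libraries. The 641 strain differences were 777 with a replicate block from the sample titles, which did not pair the samples, 735 in DESeq2 and 517 to 713 without 1 library. The X-linked share of 43.2% was 42.3 to 44.8% without 1 mouse. The median share was 50% under each alternative. No named result changed direction. None of the 746 genes under 30 reads per mouse was called at this depth.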
